A study of Rattus norvegicus with 44 samples.

Results

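The ischemic core and the periinfarct (PI) cortex of the same rats were compared 24 h after permanent occlusion of the middle cerebral artery (pMCAO), across all genes on the array. The comparison used the 4 arrays labelled as core at 24 h and the 4 labelled as periinfarct at 24 h, which are 8 of the 44 arrays analysed here, and it was paired by the rat number in the sample labels (1 to 4). The rats were adult Sprague-Dawley animals without genetic modification. In all of them the right middle cerebral artery was tied permanently while both common carotid arteries were closed for a limited time, under ketamine, diazepam and atropine with meloxicam as analgesic, so core and PI share every treatment and differ by where the cortex was cut. Per the study's methods each array carried RNA pooled from 3 rats, so a rat number stands for a pool of 3 animals and n is 4 pools, not 12 rats. The 4 arrays of contralateral cortex at 24 h, from the same 4 pools, serve as a reference level, and the 8 core and PI arrays at 3 d come from other rats. Blood flow in the contralateral hemisphere is also lowered in this model while the carotids are closed, so that this cortex is a reference and not untreated tissue. No slide held both a core and a PI array of the 24 h rats: the core arrays lay on 4 slides and the PI arrays on 3 others, with PI pools 1 and 2 sharing a slide, so that a difference between slides and a difference between areas cannot be told apart within a pool.

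The core of an infarct is the territory in which blood flow is lost and cells die within hours, whereas the periinfarct cortex around it keeps part of its flow and holds stressed but living neurons, reactive glia and entering immune cells. Heat shock proteins, immediate-early genes, chemokines and matrix genes are induced by ischemia in the cells that survive. The surface of the cortex carries the leptomeninges (arachnoid and pia), whose fibroblast-like cells make collagens and small leucine-rich proteoglycans and carry transporters such as Slc6a20a and Slc22a6. In bulk tissue such as this, fewer cells of a type and less RNA per cell cannot be told apart.

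At 24 h the 2 areas differed in few genes by the test, and the called members of the meningeal and fibroblast matrix lists were all lower in core. Each value below is the normalized signal of 1 probe on a log2 scale, and a difference is core minus PI, so that a negative value means a lower level in core. A probe was called when limma, fitted to all 44 arrays with the pool as a block, gave a Benjamini-Hochberg adjusted p below 0.05 and a difference of at least 2-fold. All groups share 1 estimate of the spread of a probe, so an SE or p-value is not that of the core and PI pairs alone. Of 26041 probes tested, 77 were called (0.296%), 24 higher in core (0.0922%) and 53 lower in core (0.204%), while 4674 (17.9%) had an unadjusted p below 0.05. The called differences ran from 2.01-fold to 4.67-fold (median 2.62) for probes higher in core and from 2.06-fold to 13.0-fold (median 3.28) for those lower in core. Each of the 77 probes moved the same way in all 4 pools, and for 15 of the 24 and 28 of the 53 the core and PI arrays did not overlap. Over all tested probes, no overlap occurred for 3.76% with core higher and for 3.52% with core lower. The median difference of all tested probes was 0.04.

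The number of calls rested on single arrays. It was 48 without core pool 2, 21 without core pool 3, 1 without core pool 4, 170 without PI pool 1, 50 without PI pool 2, 1 without PI pool 3 and 15 without PI pool 4. With only the 8 compared arrays in the fit, limma called 0 probes, and 4008 had an unadjusted p below 0.05. Without the pool as a block, 14 probes were called higher and 31 lower. Scaling each array to its 75th percentile in place of quantile normalization gave 13 higher and 91 lower, and it moved the median difference of all probes to −0.07. With the slide as a fixed block in place of the pool, 1 was higher and 9 were lower. No named gene changed the sign of a called difference under any of these settings. The called probes had 1 direction in all 4 pools, so these refits of the same arrays could hardly change a sign. The 8 arrays had between 66.5% and 75.1% of their spots well above background, and none saturated. Markers of neurons (16 of 16 tested), astrocytes (17 of 17) and oligodendrocytes (14 of 14) were well above background on all 8 arrays. Only probes that had passed a filter on signal well above background were counted, so this says little about array quality.

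**Figure D1:**
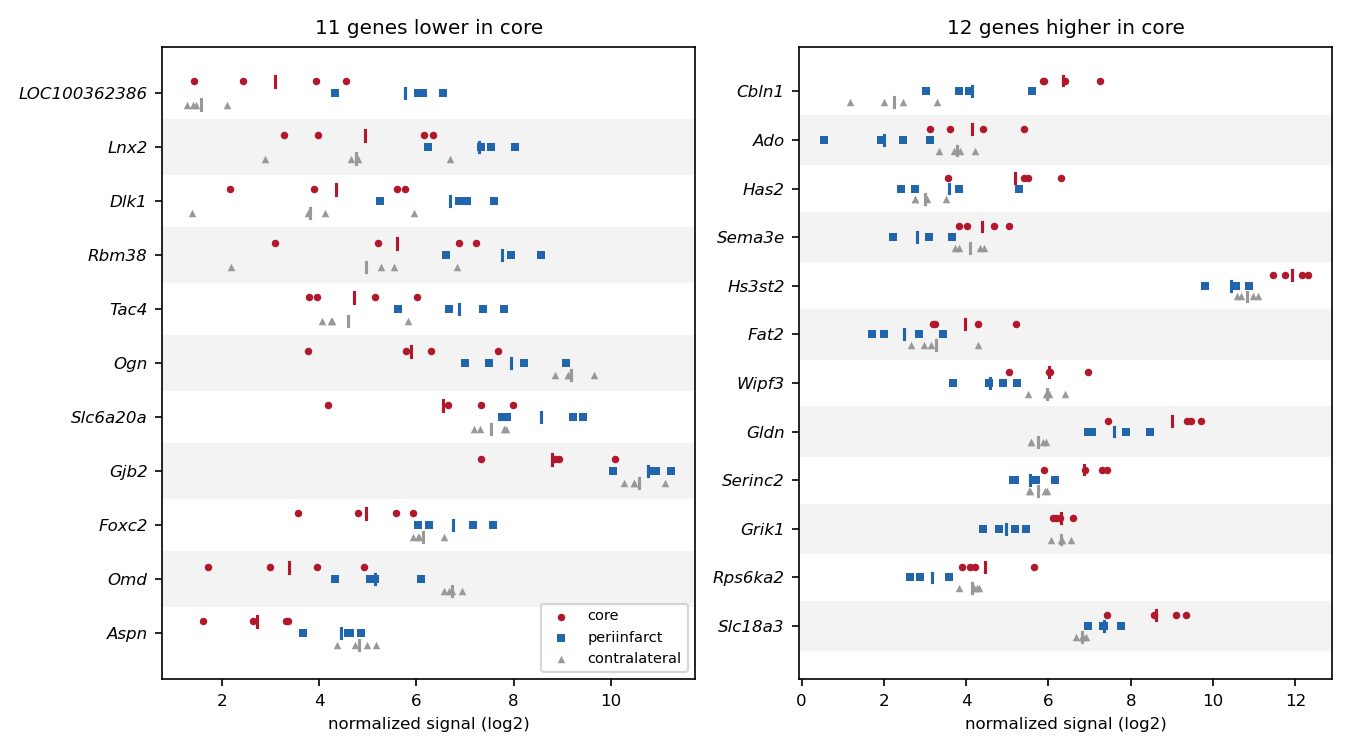
Normalized signal (log2) on each of the 4 core (circles), 4 periinfarct (squares) and 4 contralateral (triangles) arrays at 24 h for 11 called genes with the largest decreases and 12 with the largest increases in core; bars are group means of 4 pools. The group means of Ogn, Gjb2, Omd and Aspn are lower in core than in contralateral cortex, while those of Lnx2, Dlk1, Rbm38 and Tac4 are higher in periinfarct than in either other area.

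Genes of the meninges were lower in core. Of 25 leptomeningeal cell markers listed, 22 had a tested probe, and 5 of them fell in core, among them Slc6a20a, Gjb2, Slc22a6 and Zic4, while 0 rose. The median difference of the 22 was −1.13, against 0.04 over all probes. In all 4 pools, 15 of the 22 were lower in core, where 10.4% of all tested probes were, and 0 were higher in all 4, where 15.9% were. The list was chosen with earlier results of these data known, and the study names its members Slc6a20a and Aldh1a2 for this comparison. These counts are therefore a description and no independent evidence of a direction. Gjb2, which encodes the gap junction protein connexin 26, had core values of 8.93, 10.1, 7.32 and 8.86 in pools 1 to 4 and PI values of 10.1, 10.9, 10.8 and 11.2. Core lay below PI in every pool by between 0.85 and 3.51, and the fitted difference was −1.96 (SE 0.39, adjusted p = 0.0266 in limma), a level 3.90-fold lower in core. Slc6a20a, a proline transporter of the meninges, was at 6.64, 7.99, 4.19 and 7.33 in core and at 7.87, 9.23, 7.76 and 9.43 in PI, with a difference of −2.03 (SE 0.44, adjusted p = 0.0409). Slc22a6, an organic anion transporter, was well above background on no core array and on 2 of 4 PI arrays. As processed here its level was at least 2.84-fold lower in core, but over the refits its difference ran from −2.13 to −0.08. The transcription factor Zic4 was lower by 2.84-fold. Foxc2, a forkhead factor of meningeal and vascular development, was called by 1 probe (difference −1.79, adjusted p = 0.0211) but not by its brighter probe, whose difference was −0.02, so the 2 probes of this gene disagree.

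Genes of the fibroblast matrix followed the same order. Of 32 fibrillar collagen and fibroblast matrix genes, 30 were tested, 5 fell in core (Ogn, Omd, Aspn, Cpz and Efemp1) and 0 rose, and the median difference was −1.10. In all 4 pools, 23 of the 30 were lower in core (10.4% of all probes were) and 0 were higher in all 4. This list too was chosen with earlier results of these data known, so its counts are a description. Ogn (osteoglycin), a small leucine-rich proteoglycan that binds collagen, was at 6.31, 7.67, 3.77 and 5.78 in core and at 7.49, 9.09, 7.00 and 8.21 in PI. Its difference was −2.07 (SE 0.40, adjusted p = 0.0223), or 4.19-fold lower in core, and its second probe gave −1.98. Omd (osteomodulin), a relative of Ogn, was at 3.95, 4.92, 1.70 and 2.98 in core and at 5.15, 6.09, 4.33 and 5.04 in PI (difference −1.76, SE 0.30, adjusted p = 0.0139). Aspn (asporin), a further member of that family, was well above background on no core array and on all PI arrays. As processed here it was at least 3.28-fold lower in core. Over the refits the difference ran from −2.21 to −0.20 for Aspn and from −2.08 to −0.32 for Omd. Cpz, a carboxypeptidase of the extracellular matrix, was 3.26-fold lower and Efemp1, a fibulin, 2.44-fold lower. A second and dimmer probe of Efemp1 was not called, with a difference of −0.68, and was lower in 3 of 4 pools. None of the fibrillar collagens tested passed the test. Col1a1, Col1a2, Col3a1 and Col5a2 were lower in core in all 4 pools, and Col5a1 was higher in 2 pools and lower in 2 (difference 0.20). Col1a1 differed by −1.55 (adjusted p = 0.0627), Col1a2 by −1.47 (adjusted p = 0.0553) and Col3a1 by −1.71 (adjusted p = 0.0655). Basement membrane and matrix remodelling genes, the matrix of vessels and scar, stood apart from these, with a median difference of 0.00 over 28 genes, 1 rise (Has2) and 0 falls.

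The meningeal and matrix genes varied together between the core arrays as well. Core pool 3 was the lowest of the 4 core arrays for 16 of the 22 leptomeningeal markers and for 20 of the 30 matrix genes, against 25.1% of all tested probes. Core pool 2 was the highest for 16 of the 22 and for 19 of the 30, against 7390 of 26034 probes. Summed over its genes, the signal of the leptomeningeal list ranged from 6623 to 40440 in core, from 28320 to 67210 in PI and from 54240 to 80510 in contralateral cortex. The sums of the matrix list ranged from 9782 to 22860, from 19480 to 33860 and from 16280 to 26390. How much of the surface each piece of tissue held is not given in the sources used here, and the part of it in these differences was not tested. Leaving out each pool in turn kept the median of the leptomeningeal list between −1.25 and −0.96 and that of the matrix list between −1.14 and −0.90. With normexp background correction in place of the scanner's, the same genes had medians of −0.49 and −0.58, and over the refits with each setting's own filter the medians ran from −1.50 to −0.67 and from −1.17 to −0.58. Choroid plexus and ependymal markers, a further source of such transporters, had a median of −0.57 over 10 genes. Of these 0 were called and 3 were lower in all 4 pools (10.4% of all probes were).

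Ogn, Omd and Aspn, which fell together, are next to each other in this order among the protein-coding genes of rat chromosome 17 in the RefSeq annotation of GRCr8. Their promoters, from 250 bases before to 50 after the start, are shown because the 3 neighbours moved alike, with every copy of the motif TATAAA and of the forkhead motif TAAACA, read on both strands, in capitals.
Ogn, chr17:15258946-15259245, minus strand, GRCr8: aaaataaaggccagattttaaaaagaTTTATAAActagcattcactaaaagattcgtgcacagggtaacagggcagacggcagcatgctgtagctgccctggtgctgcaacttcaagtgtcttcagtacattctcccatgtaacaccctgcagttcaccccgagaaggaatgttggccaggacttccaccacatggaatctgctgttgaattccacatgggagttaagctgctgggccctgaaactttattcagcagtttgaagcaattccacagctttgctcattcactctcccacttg
Omd, chr17:15274821-15275120, minus strand, GRCr8: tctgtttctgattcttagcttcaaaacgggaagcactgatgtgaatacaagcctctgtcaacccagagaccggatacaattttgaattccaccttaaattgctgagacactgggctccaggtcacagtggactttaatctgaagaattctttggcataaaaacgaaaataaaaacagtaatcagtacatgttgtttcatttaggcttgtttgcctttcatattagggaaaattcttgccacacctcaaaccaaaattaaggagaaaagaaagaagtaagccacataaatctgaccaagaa
Aspn, chr17:15310420-15310719, minus strand, GRCr8: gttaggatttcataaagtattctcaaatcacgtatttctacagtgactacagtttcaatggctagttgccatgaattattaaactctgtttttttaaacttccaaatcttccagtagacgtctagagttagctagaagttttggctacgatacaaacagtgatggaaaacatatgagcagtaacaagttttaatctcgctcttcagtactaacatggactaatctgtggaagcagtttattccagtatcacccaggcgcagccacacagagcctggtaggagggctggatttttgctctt
The Ogn window holds TATAAA once on each strand, in overlapping copies, and the windows of Omd and Aspn hold neither motif. Over all 33469 promoters of the same length, 14.2% held TATAAA and 13.7% held TAAACA.

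A second group of decreases lay above the contralateral level in PI and near it in core. Dlk1, a Notch-related membrane protein, was at 2.16, 3.89, 5.76 and 5.61 in core, at 5.25, 6.88, 7.59 and 7.04 in PI and at 1.37, 3.76, 4.13 and 5.96 in contralateral cortex. Its difference between core and PI was −2.34 (SE 0.37, adjusted p = 0.0126), a level 5.05-fold lower in core. Lnx2, a ubiquitin ligase (5.10-fold), Rbm38, an RNA-binding protein (4.48-fold), and Tac4, a tachykinin (4.43-fold), were lower in core as well. Their PI levels were above the contralateral ones by 2.53, 2.80 and 2.27, whereas none of them was called between core and contralateral cortex. Pool 1 was the lowest in core, PI and contralateral cortex for Dlk1, Lnx2 and Rbm38. A second probe of Lnx2, dimmer than the called one, had a difference of −0.00. LOC100362386 had the largest decrease among probes with a symbol, from 6.13, 4.33, 6.04 and 6.55 in PI to 4.55, 1.42, 3.93 and 2.43 in core (6.41-fold, adjusted p = 0.0080). It was well above background on 2 of 4 core arrays. Unlike Dlk1, Lnx2, Rbm38 and Tac4, it was called above contralateral cortex in core too, by 1.52, and in PI by 4.20.

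Immune genes differed between the areas in few cases. Il17re, a subunit of the interleukin 17C receptor, was 2.82-fold lower in core (adjusted p = 0.0441), the only called gene of 20 cytokines and receptors. Of 20 microglia and macrophage markers, 8 neutrophil markers and 19 chemokines, 0 were called by limma, with medians of −0.10, 0.40 and −0.15. The neutrophil median was −0.49 with the slide as the fixed block, and the chemokine median was 0.14 without pool 4, so neither list had a stable direction. Ccl11 (eotaxin) had the largest difference of the chemokines, −3.03 (SE 0.83, adjusted p = 0.0793), with core well above background on 1 of 4 arrays. Ccl2, a monocyte attractant, rose against contralateral cortex by 7.993 log2 units in core and by 7.995 in PI, and Spp1 (osteopontin) by 8.03 and 8.08. Neither was called between core and PI, with differences of −0.00 (SE 1.01) and −0.05 (SE 1.06).

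**Figure D2:**
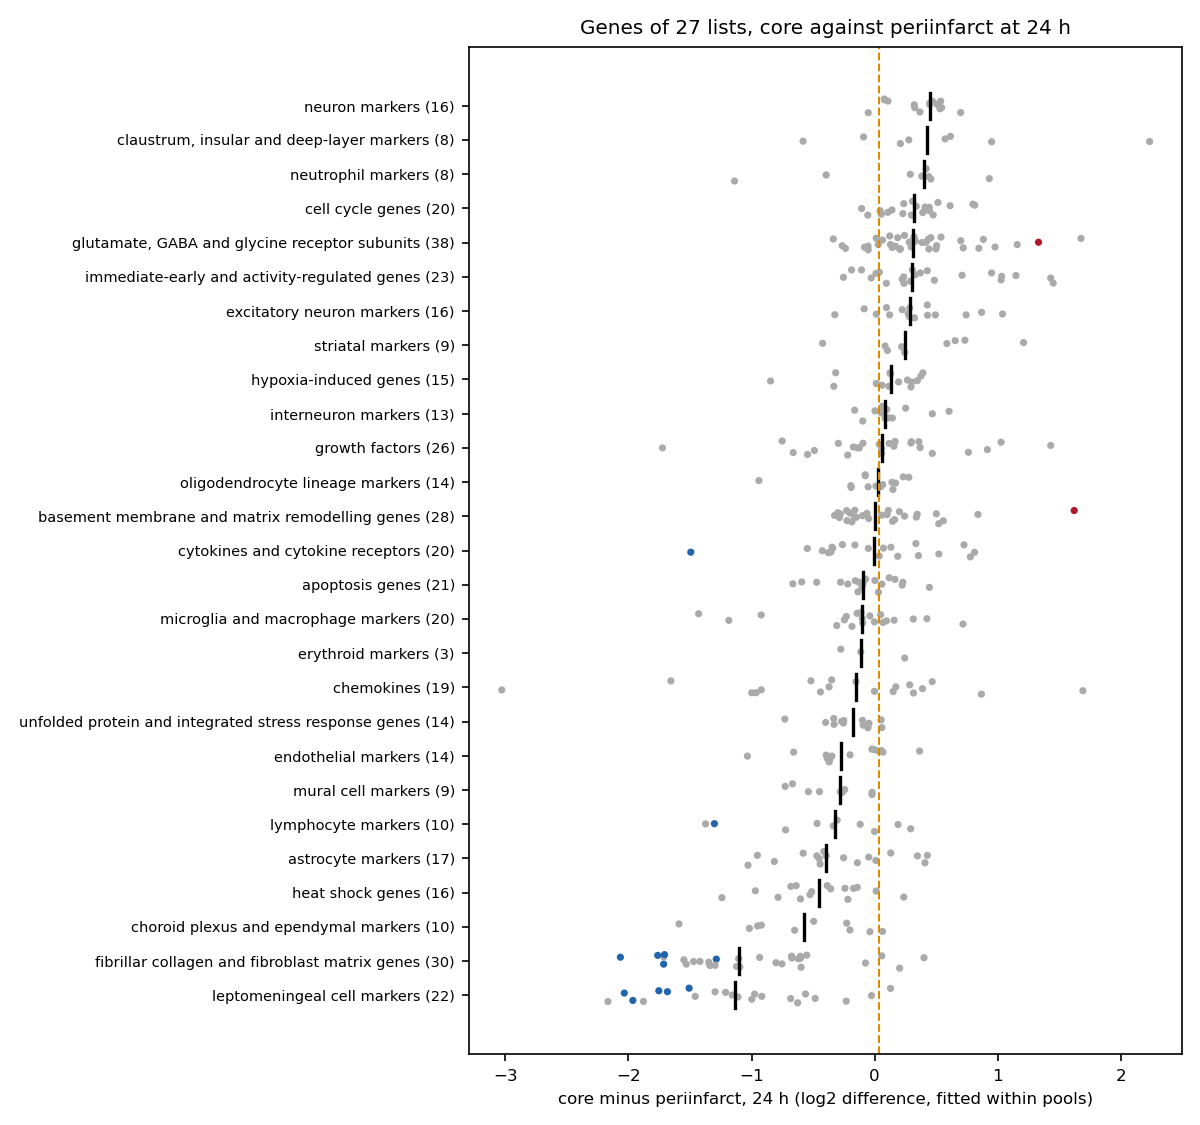
Log2 difference between core and periinfarct cortex at 24 h for every tested gene of 27 lists (1 point a gene, 1 probe each; number of genes in brackets), with list medians as black bars and the median of all probes as a dashed line. Blue points were called lower and red points called higher in core; the leptomeningeal and fibroblast matrix lists lie lowest, with medians of −1.13 and −1.10, and the neuron markers highest, with 0.45.

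The genes that rose in core were fewer and of mixed function. Cbln1, a secreted organizer of synapses, was at 5.87, 5.90, 6.40 and 7.25 in core and at 4.08, 5.60, 3.04 and 3.83 in PI, and its difference was 2.22 (SE 0.47, adjusted p = 0.0367), or 4.67-fold. The core and PI arrays did not overlap, and Cbln1 was well above background on no contralateral array. Has2, a hyaluronan synthase, was at 3.57, 5.42, 5.49 and 6.31 in core against 2.76, 3.83, 2.41 and 5.29 in PI (3.08-fold, adjusted p = 0.0457). Hs3st2, which sulfates heparan sulfate in neurons, was bright on all arrays, at 11.5, 11.8, 12.3 and 12.2 in core and 10.5, 10.9, 9.79 and 10.5 in PI (2.80-fold, adjusted p = 0.0331). Gldn (gliomedin) was 2.66-fold higher, Serinc2 2.52-fold and Slc18a3, the vesicular acetylcholine transporter, 2.39-fold higher in core. These 6 genes also lay above the contralateral level in core by the test.

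Other increases came with a level in PI below that of contralateral cortex. Grik1, a kainate receptor subunit, was at 6.12, 6.18, 6.27 and 6.60 in core, at 5.44, 5.19, 4.81 and 4.41 in PI and at 6.05, 6.55, 6.30 and 6.32 in contralateral cortex. Core did not differ from contralateral cortex by the test (difference −0.01), PI was lower by 1.34 on the log2 scale, and core was 2.52-fold above PI (SE 0.24 on the log2 scale, adjusted p = 0.0198). Sema3e, a secreted guidance cue (3.03-fold), Wipf3, an actin regulator (2.68-fold), and Ado, a thiol dioxygenase (4.35-fold), had the same order, with PI called below contralateral cortex and core not called against it. Ado and Sema3e were well above background on all core arrays but on only 1 and 2 of the PI arrays. Fat2, an atypical cadherin (2.79-fold), and Rps6ka2, a ribosomal S6 kinase (2.46-fold), were also higher in core and were called against contralateral cortex in neither area. For Wipf3 and Rps6ka2 a second and brighter probe was not called, with differences of 0.76 and 0.38.

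Neuronal transcripts as a group lay on the core side. Of 16 neuron markers tested, 0 were called by limma, yet the median difference was 0.45 and 9 of the 16 were higher in core in all 4 pools (15.9% of all probes were), with 0 lower in all 4. Snap25, a synaptic vesicle fusion protein, was at 14.4, 14.6, 14.2 and 14.9 in core, at 14.3, 14.2, 13.8 and 13.6 in PI and at 15.2, 15.1, 15.2 and 15.3 in contralateral cortex. Both areas therefore lay below the contralateral level, PI by 1.23 and core by 0.69, and the difference between them, 0.54, had an adjusted p of 0.168. Nefl, a neurofilament subunit, differed by 0.70 (adjusted p = 0.0809), and Slc12a5, the neuronal chloride extruder, by −0.05. The median over the list differed between pools, at 0.09, 0.15, 0.54 and 0.78 in pools 1 to 4, so that it was larger in pools 3 and 4, and it was 0.27 without pool 4. Against contralateral cortex the list median was −0.43 in core and −0.89 in PI. Excitatory neuron markers had a median of 0.28 over 16 genes, with 7 higher in all 4 pools and 1 lower (Neurod1), and Nrgn and Camk2b, 2 bright members, differed by 0.43 each. The 2 probes of Camk2a disagreed: that of the list differed by 0.12, and the other by −1.11, lower in all 4 pools but not called. Interneuron markers were near the median of all probes (0.09 over 13 genes, 2 higher in all 4 pools).

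Receptor subunits for glutamate, GABA and glycine shared this direction. Of 38 tested, Grik1 rose, 0 fell, 12 were higher in core in all 4 pools and 0 were lower in all 4. Over all probes, 15.9% were higher and 10.4% lower in all 4. The median of the list was 0.31. The median was 0.09, −0.01, 0.41 and 0.83 in pools 1 to 4, and 0.11 without pool 4. Among members that were not called, Glra2 differed by 1.16 (adjusted p = 0.0602), Grm8 by 0.98 (adjusted p = 0.106) and Gabra5 by 0.88 (adjusted p = 0.128). Against contralateral cortex 5 of the 38 fell in core and 12 fell in PI (over all probes, 3.50% fell in core and 6.83% in PI). The 8 claustrum, insular and deep-layer markers had a median of 0.43. The 9 striatal markers had a median of 0.24 and ran from −0.42 to 1.21, and 3 did not overlap, with core higher (3.76% of all probes). Oprk1, the kappa opioid receptor, was at 6.03, 4.95, 5.65 and 4.03 in core and 3.81, 4.52, 1.96 and 1.43 in PI (difference 2.23, SE 0.54, adjusted p = 0.0602). Whether the pieces of core and PI held the same cortical layers and the same neighbouring regions is not given in the sources used here and was not tested.

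**Figure D3:**
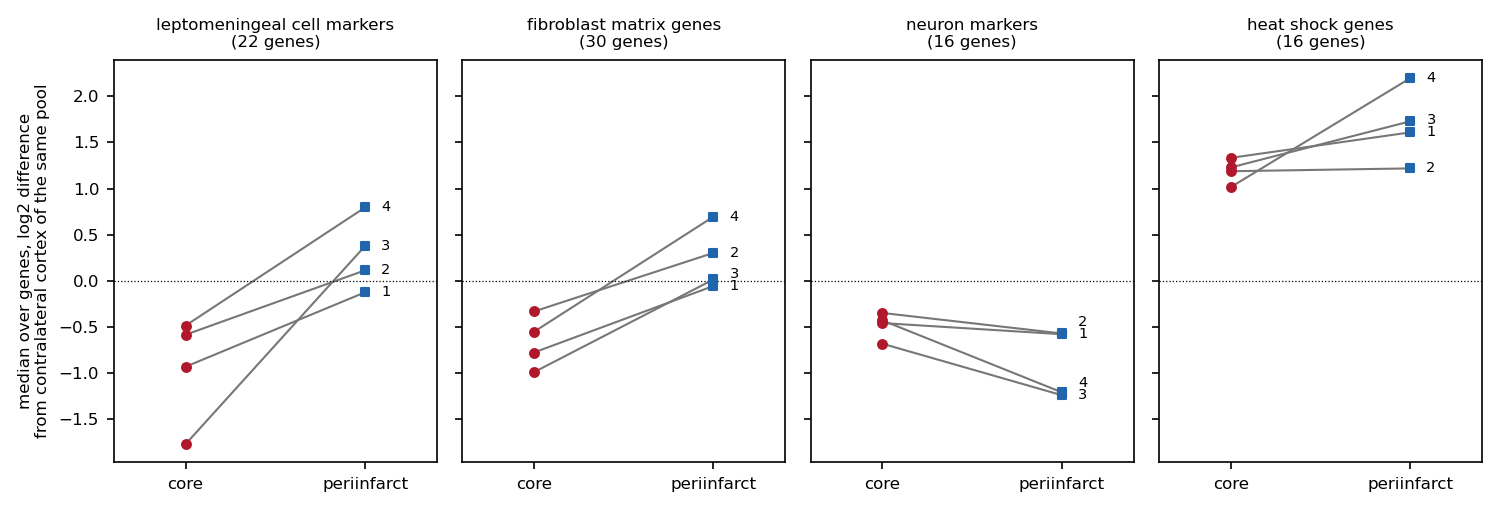
Median over the genes of 4 lists of the log2 difference from contralateral cortex of the same pool, for core (circles) and periinfarct cortex (squares); each line is 1 pool, numbered at its right end. Leptomeningeal and matrix genes lie below contralateral cortex in core in all 4 pools, neuron markers lie below it in both areas and more so in periinfarct, and heat shock genes lie above it in both.

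Heat shock genes, the chaperones induced by protein damage, were strongly raised in both areas and more so in PI, without a call between them. Of 16 tested, 8 rose in core and 12 rose in PI against contralateral cortex (6.27% and 8.89% of all probes did). Between the areas the median difference was −0.45, with 7 lower in core in all 4 pools and 0 higher (10.4% and 15.9% of all probes were). Under scaling to the 75th percentile the median of the same genes was −0.39, with 4 lower and 0 higher (15.3% and 10.2% of all probes). Hspa1b (Hsp70) was at 14.3, 13.7, 14.2 and 14.0 in core, at 14.9, 13.9, 15.3 and 15.9 in PI and between 7.95 and 8.21 in contralateral cortex (difference −0.97, SE 0.29, adjusted p = 0.103). Hspe1, the co-chaperonin of mitochondria, had an adjusted p of 0.0281 with a difference of −0.60, below the 2-fold limit, while Hsp90aa1 differed by −0.14. The list median was −0.33, −0.18, −0.33 and −1.02 in pools 1 to 4, so that pool 4 stood apart, and it was −0.26 without that pool. Immediate-early genes had a median of 0.31 over 23 genes with 4 higher in all 4 pools, 1 lower and 0 called by limma. The 17.4% of this list that was higher in all 4 pools was near the 15.9% of all probes. Nr4a1 and Arc differed by 0.29 and 0.71. Genes of the unfolded protein response (median −0.18 of 14), of hypoxia (0.13 of 15), of apoptosis (−0.10 of 21) and of the cell cycle (0.32 of 20) had 0 calls as well. In the cell cycle list, 9 of 20 were higher in core in all 4 pools under quantile normalization and 5 under scaling to the 75th percentile. Of all probes, 15.9% and 10.2% were.

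No gene of the glial and vascular lists was called by limma. Of 17 astrocyte markers 0 were called, and 5 were lower and 1 was higher in core in all 4 pools (10.4% and 15.9% of all probes were). The astrocyte median was −0.39, and −0.10 with the slide as the fixed block. Aqp4, the astrocyte water channel, differed by −0.44 and Aldoc by 0.13. Gja1 (connexin 43) had an adjusted p of 0.0426 with a difference of −0.58, below the 2-fold limit. Endothelial markers had a median of −0.27 over 14 genes, which was −0.06 without pool 3, and mural cell markers −0.28 over 9 genes, which was −0.54 without pool 2. The oligodendrocyte markers (0.03 of 14), among them Mbp, were near the median of all probes. Of 26 growth factors 0 were called. Tgfb2 shared with Spmip8 the smallest adjusted p-value of the comparison (0.0047), at 6.96, 7.61, 7.61 and 7.62 in core and at 6.20, 6.70, 6.71 and 6.52 in PI without overlap, but its 1.89-fold difference missed the 2-fold limit.

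The study's text names 20 genes for this comparison. They were picked on these arrays and are no independent evidence of a direction. Of 19 with a tested probe, 3 rose (Cbln1, Has2 and Hs3st2) and 3 fell (Slc6a20a, Lnx2 and Dlk1). Of the rest, Aldh1a2, a retinoic acid synthesizing enzyme of the meninges, differed by −2.17 (adjusted p = 0.0681), Ccl21 by 1.69 (adjusted p = 0.0602), Atoh7 by 1.66 (adjusted p = 0.0687) and Crabp1 by 1.49 (adjusted p = 0.0682). Inhba, Gipr, Slc6a5 and Cldn19 had adjusted p-values between 0.111 and 0.169. The tested probe of Sfpq differed by −0.03 (adjusted p = 0.912).

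The contralateral cortex of the same pools places the called probes. Both contrasts share the contralateral arrays and are given side by side. Of the 53 probes lower in core, 22 were below contralateral cortex in core and 25 were above it in PI by the test, 6 were called above it in both areas, 4 below it in both and 6 in neither. Of the 24 higher in core, 10 were above contralateral cortex in core, 9 were below it in PI and 5 were called in neither area. Over all tested probes, 3.50% were called below contralateral cortex in core and 6.27% above it. In PI, 6.83% were below it and 8.89% above. The called probes were chosen for a difference between core and PI, which favours a level away from contralateral cortex, so these counts are a description. Ogn, Omd and Slc22a6 fell against contralateral cortex in both areas, with Ogn lower by 3.30 in core and by 1.24 in PI on the log2 scale. Gjb2, Aspn, Cpz, Zic4 and Efemp1 fell in core and were not called in PI.

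**Figure D4:**
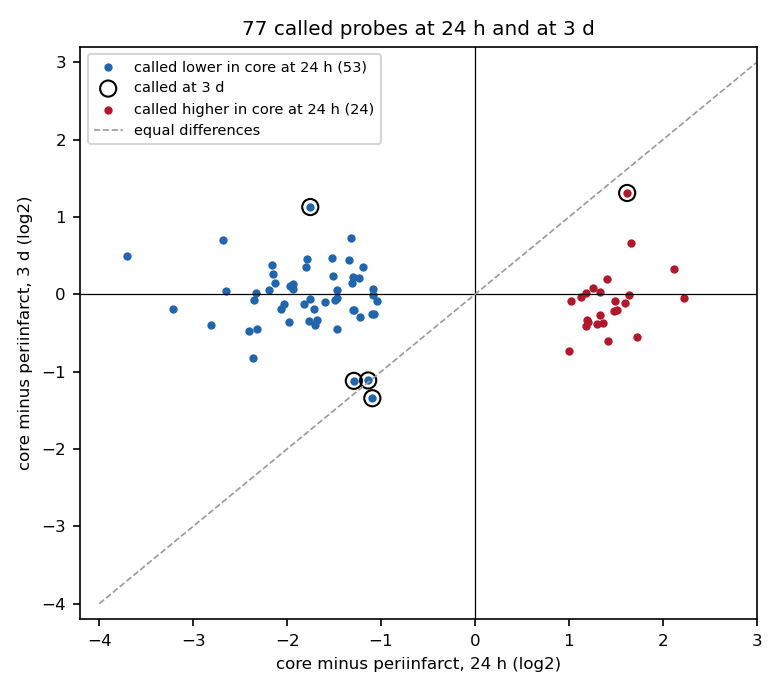
Log2 difference between core and periinfarct cortex at 24 h (horizontal) and at 3 d (vertical) for the 77 probes called at 24 h; circled probes were also called at 3 d and the dashed line marks equal differences. Most probes lie near 0 at 3 d, with medians of −0.06 for the 53 lower and −0.10 for the 24 higher in core at 24 h.

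At 3 d, in other rats, few of these differences were seen. Of the 53 probes lower in core at 24 h, 3 were lower in core at 3 d, among them Plk5 and Ryr1, and 1 was higher, where 1.27% of all probes were called lower and 3.99% higher. Of the 24 higher in core at 24 h, Has2 alone was called higher at 3 d (difference 1.31). The change of the difference between the times was called for 41 of the 53 and for 21 of the 24. Over all probes it was called for 3.60% with a shift toward core and 5.50% with a shift toward PI, 2368 in all, and that total was 571 without core pool 9 of the 3 d rats and 345 without pool 4 of the 24 h rats. The probes were chosen for their difference at 24 h, so these counts are a description. Of the lists, the leptomeningeal markers went from a median of −1.13 at 24 h to 0.29 at 3 d and the matrix genes from −1.10 to 0.18, with 12 of 22 and 15 of 30 called for the change. Neuron markers went from 0.45 to −0.61 and receptor subunits from 0.31 to −0.70, with 10 of 16 and 18 of 38 called, all toward PI. The groups at the 2 times are different pools, and the tissue cut as core and PI may differ between them, which was not tested.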

How the data were processed

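RNA was measured on Agilent one-color 4 x 44K rat arrays. The deposited scanner files, made by the authors with Feature Extraction 10.7.3.1, hold background-subtracted signal intensities, and the deposited table holds the authors' log2 values after a threshold of 1, quantile normalization and filtering. The deposited flags (other values, 0 or 1) mark spots by quality. The labels' protocol names a miRNA kit and the methods an mRNA one, which was not settled.

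Here signals were thresholded at 1, taken as log2 and quantile normalized, outlier spots set to missing and spots of a probe averaged. Of 41012 probes, 26041 passed the filters (20th percentile and well above background in 75% of a group's arrays, coefficient of variation above 2.5%). Symbols came from RefSeq for 16815 probes and the authors' table for 2502. Groups, with the pool as a fixed block (18 residual degrees of freedom), were fitted with limma 3.58.1 in R 4.3.3. Arrays of 1 pool come from the same rats, and their deviations correlated at 0.287, 0.206, 0.009 and 0.316 in pools 1 to 4 (other pairs, mean −0.069). Nothing says whether pools were processed separately, so p-values measure the spread between arrays. That spread was estimated over all 11 groups, and the spread of the core and PI differences between pools can be larger. No array copied another (highest correlation 0.993). In simulated data of this comparison with 26041 probes, 191 of 200 changed probes and 6 others were called. Every planted change was larger than the 2-fold limit, and the noise was independent between arrays with no slide effect. The share called therefore does not apply to smaller differences or to differences between slides. A fold is given as a bound, against the lowest signal well above background or the probe's own where that is brighter, for probes that no array of the lower group measured above it. The R packages data.table (version 1.17.8) and statmod (version 1.5.0) served for reading and random blocks.

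Named were the 12 largest increases and decreases among called genes with 1 direction in all pools, up to 6 called members of each of 28 lists or else its 2 brightest, and the genes the study names. Lists use 1 probe a gene, the brightest. Other genes were named after their values were seen. The members and lists were chosen with earlier results of these data known. The study's own fold changes were not used. The alternatives were no block, random blocks, fewer arrays, other scaling, background correction and filters, the authors' table, outliers kept, no fold minimum, the slide as a block, the mean of probes, and arrays or pools left out. Added after seeing the data were the slide as a random block and a filter on signal significant against background. Some of the genes so chosen are not reported here.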

Additional observations from a re-analysis of the deposited data

Results flagged for a closer look

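Within a group of 4 arrays, 1 array stood apart in 7 cases among the 85 named genes, less those not reported. Each gene was scanned in 2 groups, core and periinfarct, and chance gives about 1 in 20 such groups. The 7 cases are thus near what chance alone gives. They were Gldn in core pool 1 (7.46, next 9.37), Penk in core pool 4 (9.91, next 9.75), Nr4a1 in periinfarct pool 4 (13.8, next 12.0), Aifm3 in core pool 3 (8.93, next 9.55), Bbc3 in periinfarct pool 2 (10.55, next 11.19), Ccl21 in core pool 1 (4.49, next 5.22) and Crabp1 in core pool 1 (5.50, next 7.56), all in log2 signal.

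For 36 named genes the difference between core and periinfarct changed from 24 h to 3 d by the same call rule. Values are the difference at 3 d minus that at 24 h. The change was negative for Cbln1 (−2.27), Ado (−1.79), Sema3e (−1.70), Hs3st2 (−1.57), Fat2 (−1.69), Wipf3 (−2.03), Serinc2 (−1.30), Grik1 (−1.60), Rps6ka2 (−1.68), Slc18a3 (−1.17), Snap25 (−1.08), Nrgn (−1.20), Camk2b (−1.05), Cx3cl1 (−1.10), Ccl21 (−1.88), Atoh7 (−1.76), Crabp1 (−1.98) and Gipr (−2.34). It was positive for LOC100362386 (3.38), Lnx2 (2.28), Dlk1 (2.35), Rbm38 (2.55), Tac4 (2.41), Ogn (1.87), Slc6a20a (1.91), Gjb2 (2.07), Foxc2 (2.24), Omd (1.42), Aspn (1.52), Slc22a6 (1.36), Zic4 (1.74), Efemp1 (1.08), Tyrobp (1.396), Il17re (1.42), Igf1 (2.10) and Aldh1a2 (2.95).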

How the results depend on the processing

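The number of called genes was not stable. The 30 named called probes kept their sign in all 801 refits and lost the call in 380. Each called probe had 1 direction in all 4 pools, so refits of the same arrays could hardly change its sign. Of 55 named probes not called, 19 of 1481 refits gave a call and 40 had the other sign. The reported counts were 77 called, 24 higher, 53 lower, 18 list genes called, 66 called probes also called against contralateral cortex and 2368 called for the change with time. With no replicate block, so without pairing by pool, they were 45, 14, 31, 11 and 40, and with the pool as a random block (correlation 0.251) 250, 88, 162, 46 and 194. The 8 compared arrays alone with the replicate block gave 0, 0, 0 and 0 (4008 at an unadjusted p below 0.05), and the 12 arrays of 24 h ischemic rats 0, 0, 0, 0 and 0 (5315). Scaling to the 75th percentile gave 13 higher and 91 lower. Normexp gave 33, 8, 25, 30 with a contralateral call and 761 for the change. No filter gave 50 called and 33 lower. No fold minimum gave 158, 75, 83, 154 and 5221. The slide as a fixed block gave 10, 1, 9, 2, 10 and 1100, and as a random block 15 higher. The mean of the probes of a symbol, which tests 11149 symbols, gave 47, 15, 32, 38 and 1114. Leaving out 1 array or pool gave 1 to 170 called, 0 to 91 higher, 1 to 79 lower, 0 to 24 list genes, 0 to 142 with a contralateral call and 345 to 4198 for the change. The change counted 571 without core pool 9, 4198 without core pool 11, 1396 and 1507 without periinfarct pools 9 and 11 at 3 d, and at 24 h 1152 without core pool 4, 1512 and 980 without periinfarct pools 3 and 4, and 1345 and 345 without pools 3 and 4. No other setting moved these counts by over 1.5 times. The cause of these shifts was not tested, beyond the fewer arrays or probes that some settings hold. With 4 pools an area, and without a slide that held both, small differences and those of dim probes could not be resolved.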

Other observations

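Several called probes varied with Dlk1 inside groups too, a pattern seen after the values were known. Over the 44 arrays, which share pools and slides, the deviations from the group means of 11 of the 26041 tested probes had a correlation above 0.7 with those of Dlk1, and 7 of these 11 were among the other 76 called probes. The 3 with a symbol were Rbm38 (0.886), Lnx2 (0.884) and Bmp2k (0.808). On the 32 arrays outside the 24 h ischemic rats, Dlk1 ranged from 3.27 to 5.77, Rbm38 from 3.61 to 6.60 and Lnx2 from 3.37 to 6.23. The genes differ in known function, and a second Lnx2 probe showed no difference between core and periinfarct (−0.00).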
